A study of Homo sapiens with 8 samples.

Results

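NAT10, the enzyme that acetylates cytidines in RNA, was studied here together with FOXP1, HNRNPUL1 and 6 genes of sugar and lactate metabolism, across antibody peaks of the RNA mark N4-acetylcytidine (ac4C). The 9 genes were chosen by name: NAT10, FOXP1, HNRNPUL1, the glucose transporters SLC2A1, SLC2A3 and SLC2A4, the lactate transporter SLC16A1, and the enzymes PFKFB3 and KHK. Of the 9, 8 had at least 1 peak, all 8 in SiHa cells, against 29% of RefSeq protein-coding genes with a named SiHa peak. The 9 were chosen with earlier results of these data known, so this count is a description. In all, 9046 genes had a peak in either population. The study captured ac4C-bearing RNA with an antibody and sequenced it beside input RNA, with 2 libraries in each of 4 groups. The groups are input and immunoprecipitated RNA of SiHa, a cervical carcinoma line that carries human papillomavirus, and input and immunoprecipitated RNA of SiHa cells with NAT10 knocked out. The labels give no treatment, no time point, and do not say whether the knockout is 1 clone. Each population has 1 deposited peak list without replicate values, and the list whose name carries an added K was read as that of the knockout. The depth is unknown from such lists, and nothing that differs between them has a replicate check.

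NAT10 forms ac4C in ribosomal RNA, in transfer RNA and in messenger RNA, where the mark has been linked to transcript stability and translation. Glucose enters most cells through facilitative carriers of the SLC2A (GLUT) family, is broken down by glycolysis, and leaves as lactate through SLC16A (MCT) carriers, a flow that is high in many carcinomas. FOXP1 is a forkhead transcription factor, SLC2A4 is the carrier that insulin brings to the surface of muscle and fat cells, and KHK phosphorylates fructose. A peak reports RNA recovered by the antibody above a background, so a missing peak can mean less ac4C, less transcript or fewer reads, and from a list these cannot be told apart.

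The SiHa list, after cleaning, held 12924 peaks and the knockout list 4557. The 9 genes held 14 of the SiHa peaks and 3 of the knockout peaks. NAT10, FOXP1, KHK, PFKFB3 and SLC16A1 had SiHa peaks alone, SLC2A1, SLC2A3 and HNRNPUL1 had peaks in both lists, and SLC2A4 had none in either. NAT10, FOXP1, KHK, HNRNPUL1 and SLC16A1 had exactly 1 SiHa peak, as 59.1% of all genes with a SiHa peak did, SLC2A1 and SLC2A3 had 2, as 22.5% did, and PFKFB3 had 5. Thus 5 of 8 genes with a SiHa peak had no knockout peak (62.5%, 95% exact binomial interval 24.5 to 91.5%). Over all named genes with a SiHa peak this share was 71.9% (70.8 to 73%), which lies inside that interval, so the count of 5 is near the background. Intervals cover counting of genes only. Of the squamous epithelial markers, 5 of 10 had a SiHa peak and 4 of 10 a knockout peak. Of markers of blood, vessel, stroma, liver and islet cells, 4 of 14 had a SiHa peak (HBB, HBA1, ALB and ACTA2) and 5 of 14 a knockout peak (HBB, HBA1, ALB, PECAM1 and PTPRC). The SiHa peak of ALB was stronger than 96.3% of the SiHa list, while its knockout peak had a false discovery rate of 0.526. Over all RefSeq protein-coding genes, 29% had a named SiHa peak and 14.8% a named knockout peak. The strongest peak of HBB, a globin gene, had a p listed at 0 in both lists and a knockout fold of 1290. The part of such RNA in the results was not tested, and a peak list gives no level with which the labelled cell type could be checked.

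Sequence at hand covers the promoters of 5 of the genes, and it is shown for the 2 windows that a peak reached. The first is SLC2A1, whose upstream SiHa peak began 66 bases before the RefSeq start. The 250 bases before that start (GRCh38.p14 from RefSeq, minus strand, chr1:42958869-42959118) run 5′ to 3′ below, with the bases inside the SiHa peak in capitals.
SLC2A1: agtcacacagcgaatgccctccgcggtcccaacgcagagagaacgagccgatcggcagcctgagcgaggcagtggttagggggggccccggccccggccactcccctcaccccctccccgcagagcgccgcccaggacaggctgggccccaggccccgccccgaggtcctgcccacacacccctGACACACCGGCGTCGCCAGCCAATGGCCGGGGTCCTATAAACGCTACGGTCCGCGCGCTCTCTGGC
The second is HNRNPUL1, whose SiHa peak lay just before a start inside the gene. Other annotated starts, at 41262557 and 41264372, lie before the peak, so it is also inside the gene as read from those. Of its 137 peak bases there, 30 are shown (plus strand, chr19:41264901-41264930), chosen as the stretch with the most matches to CNNCNNCNN, a cytidine spacing reported for ac4C in messenger RNA, with the matched bases in capitals.
HNRNPUL1: ggatcgggggatcCCGCTACCCGCCGCCGA
The peak bases of these windows were 68.2% G or C in SLC2A1 and 68.6% in HNRNPUL1. The whole 250 bases before these starts were 72.4% in SLC2A1 and 70% in HNRNPUL1, against a median of 58% over 35116 RefSeq windows. The peak bases held 4 and 5 matches to CNNCNNCNN. On the strand of the gene, 95.3% of all windows of 300 bases held this motif, and on either strand 99.4%, counting overlapping matches, so its presence sets neither gene apart.

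NAT10 itself (ENSG00000135372, GRCh38 chr11:34105629-34146908, plus strand) had 1 SiHa peak and no knockout peak. The peak covered 359 bases in 3 blocks, the first of 75 bases at chr11:34142274-34142348, the next of 84 bases at chr11:34143445-34143528 and the last of 200 bases at chr11:34146084-34146283. It thus bridged 2 gaps and ended 625 bases before the end of the gene. Its deposited p was 5e-37, stronger than 84.2% of SiHa peaks. The knockout list held nothing in the NAT10 span, which shows the absence of a peak and not the absence of the transcript. Among the 2775 other named genes with 1 SiHa peak and none in the knockout, the nearest to NAT10 in covered bases and strength were NIPA1 (361 bases, deposited p of 1.3e-36) and RAB9A (359 bases, deposited p of 4e-36).

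FOXP1 (ENSG00000114861, chr3:70954708-71583978, minus strand) had 1 of the strongest peaks of the SiHa list and none in the knockout list. Its SiHa peak had 331 bases, 177 at chr3:70959215-70959391 and 154 at chr3:70965890-70966043, with a deposited p listed at 0. In all, 309 SiHa peaks (2.39%) had a p listed at 0, and these have no order among themselves. The peak lay 98.8% along a gene of 629271 bases, ending 4507 bases from the gene end and 98881 bases from the nearest annotated start. A further SiHa peak inside the FOXP1 span belonged to the opposite strand. It had 176 bases between 71292576 and 71302780, a p of 0.0066, and the identifier of FOXP1-AS1, a long noncoding RNA (ENSG00000244203). Strand separated the 2 identifiers, so the strong peak was that of FOXP1 and the weak one that of its antisense neighbour. EMC1 and SGK2 were the genes most like FOXP1, each with 1 SiHa peak of 361 bases and a p listed at 0.

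HNRNPUL1 (ENSG00000105323, chr19:41262557-41307787, plus strand), which encodes an RNA-binding protein of the hnRNP U family, had a peak in each list, at opposite ends of the gene. The SiHa peak covered 240 bases, 103 at chr19:41264696-41264798 and 137 at chr19:41264847-41264983, with a p of 6.3e-42, stronger than 85.6% of its list. It ended 98 bases before an annotated start at 41265081 and lay after the annotated starts at 41262557 and 41264372. The knockout peak of 150 bases at chr19:41306523-41306672 lay 41539 bases further on and 1115 bases from the gene end. Its fold enrichment was 3.42 and its p 0.0051, stronger than 14.4% of knockout peaks, with a false discovery rate of 0.0631, above 0.05. Of all knockout peaks, 25% had a false discovery rate above 0.05. A SiHa peak of TGFB1 on the opposite strand reached into the HNRNPUL1 span with 47 of its 151 bases and was not counted. DDX56 and MAP3K3 were most like HNRNPUL1 among 653 genes with 1 peak in each list.

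The glucose carriers SLC2A1 and SLC2A3 were the members in which the lists met at the same place. SLC2A1 (ENSG00000117394, chr1:42925353-42958868, minus strand), the widespread basal carrier GLUT1, had 2 SiHa peaks. The stronger had 748 bases in 1 block at chr1:42926391-42927138, a p of 5e-66, stronger than 89.9% of the list, and more bases than 98.1% of it. The weaker had 240 bases at chr1:42958695-42958934, across the start, with a p of 0.00023. The knockout peak of SLC2A1 had 181 bases at chr1:42926719-42926899, with a fold of 41.0, a p of 5.6e-10 and a false discovery rate of 1.58e-08. It lay wholly inside the stronger SiHa peak and covered 24.2% of it, and no knockout peak lay at the start of the gene.

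SLC2A3 (ENSG00000059804, chr12:7919230-7936187), the high-affinity carrier GLUT3, had the same arrangement. Its stronger SiHa peak had 629 bases, 579 at chr12:7921053-7921631 and 50 at chr12:7922821-7922870, with a p of 3.2e-26. The weaker had 300 bases, 74 at chr12:7933829-7933902 and 226 at chr12:7936020-7936245, across the first base of the RefSeq span, with a p of 8.9e-07. The knockout peak of 180 bases at chr12:7921323-7921502 had a fold of 15.4, a p of 9.3e-07 and a false discovery rate of 1.86e-05. It was wholly inside the stronger SiHa peak and covered 28.6% of it. In both carriers the knockout list thus held a part of the wide peak near the gene end and none of the peak at the start. These knockout peaks were of common width, as the median knockout peak had 180 bases. The SiHa peaks around them were wide, with more bases than 98.1% (SLC2A1) and 96.7% (SLC2A3) of the SiHa list. Covered bases were 988 in SiHa and 181 in the knockout for SLC2A1, a ratio of 5.46, and 929 and 180 for SLC2A3, a ratio of 5.16. SLC2A3 has a near-identical neighbour, SLC2A14, which had no named peak, and how reads were divided between these copies is not given in the sources used here.

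**Figure D1:**
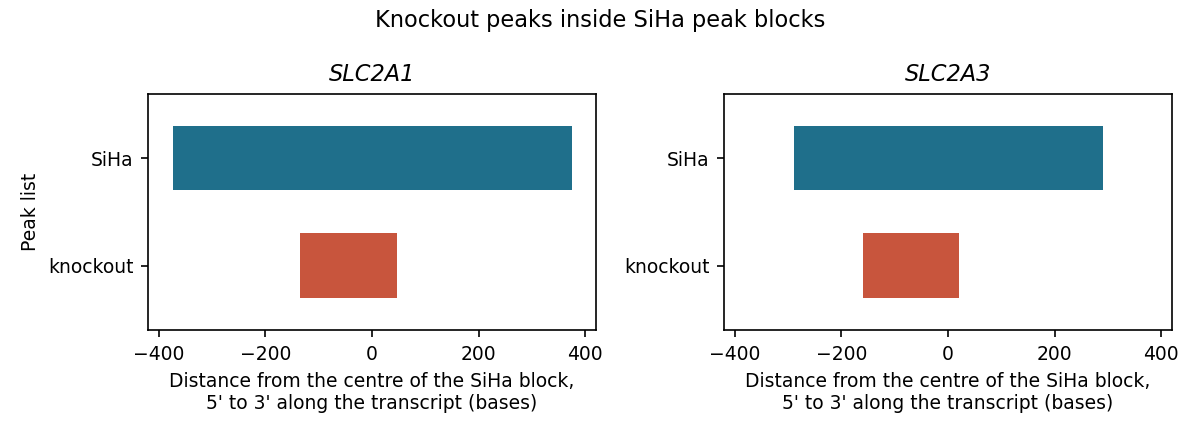
Extent of the stronger SiHa peak block (top bar) and the knockout peak (lower bar) in SLC2A1 and SLC2A3, in bases from the centre of the SiHa block, 5′ to 3′ along the transcript. The knockout peaks of 181 and 180 bases lie wholly inside SiHa blocks of 748 and 579 bases.

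Over the whole series, 6.76% of SiHa peaks were overlapped by a knockout peak on the same strand, and 10.2% of knockout peaks lay wholly inside a SiHa peak. Of the 14 SiHa peaks of the 9 genes, 2 were overlapped, both described above. Of all named genes found in the SiHa and the knockout list, 39.7% had an overlapped SiHa peak, and SLC2A1 and SLC2A3 did while HNRNPUL1 did not. All 3 knockout peaks of these genes had a pair of p and fold that recurred elsewhere in the list, in 27 other peaks for SLC2A1, 21 for SLC2A3 and 11 for HNRNPUL1. Such recurring pairs, shared by 10 or more peaks, made up 59.4% of the knockout list, and without them none of the 9 genes had a knockout peak. With −log10 p above 8 required in both lists, SLC2A1 alone kept one. The fold of SLC2A1 was higher than 85.5% of knockout folds, that of SLC2A3 higher than 54.8% and that of HNRNPUL1 higher than 7.9%.

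SLC2A4, the insulin-responsive carrier GLUT4 (chr17:7281718-7288257), had no peak in either list on either strand, so no ac4C value can be given for it in these cells. Absence of a peak is the common state among RefSeq protein-coding genes, as the shares of 29 and 14.8% above show.

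SLC16A1 (ENSG00000155380, chr1:112911847-112956196), the lactate carrier MCT1, had 1 SiHa peak with a p listed at 0 and no knockout peak. The peak had 508 bases, 409 at chr1:112913757-112914165 and 99 at chr1:112917178-112917276, more than 93.4% of SiHa peaks. It ended 1910 bases from the gene end, 93.8% along the gene. ND6, a mitochondrial transcript, and PHF23 were most like it, with 525 and 480 bases and a p listed at 0.

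PFKFB3 (ENSG00000170525, chr10:6144921-6326637, plus strand), which makes fructose 2,6-bisphosphate, an activator of glycolysis, had the most peaks of the 9 genes, 5 in SiHa and none in the knockout. Of all genes with a SiHa peak, 4.25% had 5 or more. The strongest was 1 block of 1320 bases at chr10:6233182-6234501, with a p listed at 0 and more bases than 99.8% of SiHa peaks. Next came a peak of 361 bases in 4 blocks between 6220758 and 6222708, with a p of 2e-43. The other 3 were weak, with 210 bases and a p of 0.00036 between 6222948 and 6224550, 181 bases and a p of 0.0016 at 6235070 to 6235250, and 181 bases and a p of 0.0066 between 6203295 and 6215233. Weak values of this kind recur, since the p of 0.0066 was shared by 974 SiHa peaks and that of 0.0016 by 671. The first peak began 363 bases after an annotated start at 6202932, and together the peaks covered 2253 bases. MSH6, with 2221 bases, and ARHGAP21, with 2222, were most like PFKFB3 among 89 genes with 5 SiHa peaks and no knockout peak.

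KHK (ENSG00000138030, chr2:27086772-27100762) had the weakest leading peak of the 8 genes. That peak, its only one, was in the SiHa list and had 181 bases at chr2:27087077-27087257, 305 bases after the start of the RefSeq span. Its p was 0.0012, stronger than 27.3% of the list. That p was shared by 149 SiHa peaks, and ACSL3 had the same width and p. With p below 0.001 required in both lists, KHK had no peak. Its absence from the knockout list is thus the absence of a peak that was near the weak end of the SiHa list.

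**Figure D2:**
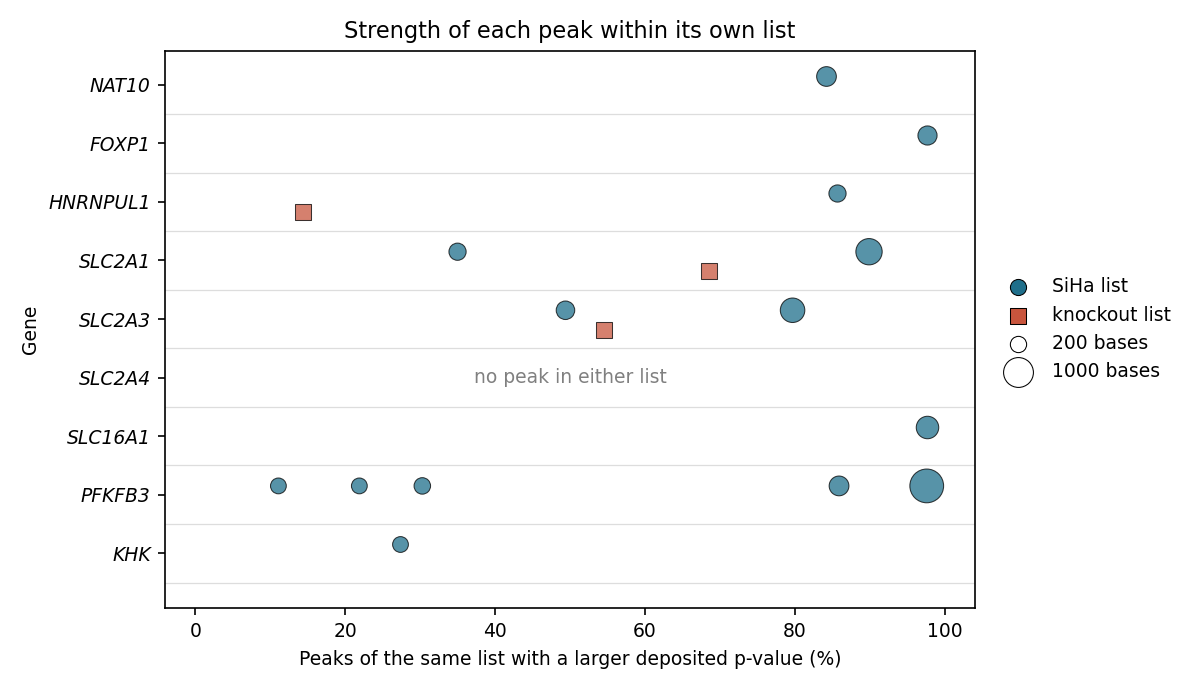
Each point is 1 peak of the gene named on the left, placed by the percentage of peaks of its own list with a larger deposited p-value, with symbol area growing with covered bases. SiHa peaks of FOXP1, SLC16A1 and PFKFB3 stand at 97.6%, the level shared by all peaks with a p listed at 0, the KHK peak at 27.3%, and the 3 knockout peaks between 14.4 and 68.5%.

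The strongest SiHa peaks of these genes were mostly strong for the list. The strongest peak of FOXP1, SLC16A1 and PFKFB3 had a p listed at 0, as did 1 or more peaks in 3.85% of all genes with a SiHa peak. SLC2A1, HNRNPUL1, NAT10 and SLC2A3 followed, above 89.9, 85.6, 84.2 and 79.7% of peaks, and KHK came last. The median −log10 p of the strongest peak was 53.3 over the 8 genes and 10 over all 6205 named genes with a SiHa peak. The genes were named because of earlier results of these data, so this order is a description. The weaker second peaks of SLC2A1 and SLC2A3 and 3 of the 5 PFKFB3 peaks were each stronger than less than 50% of the list.

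Position within the gene split the members. The strongest SiHa peak lay at 90% or more of the gene length in NAT10, FOXP1, SLC2A1 and SLC16A1, 4 of 8 genes, against 41.4% of 5809 protein-coding genes, so this share is near the background. SLC2A3 followed at 86.8% along the gene, while HNRNPUL1 and KHK had theirs at 5.05 and 2.82%. PFKFB3 stood at 48.9% of a RefSeq span that runs 92136 bases past the peak. A SiHa peak within 500 bases of a start was found in 5 of the 8 genes (SLC2A1, SLC2A3, HNRNPUL1, KHK and PFKFB3), against 12.2% of protein-coding genes with a SiHa peak. A start was that of a RefSeq promoter window or the first base of the gene span. SLC2A3 and KHK had the span alone, with the strand read from the peak. Genes with several starts offer more places for such a peak, which was not adjusted for. The peaks near a start in KHK (p of 0.0012) and PFKFB3 (p of 0.0066) were weak, stronger than 27.3 and 11.1% of the list. Peaks across a start were found in 2 of 8, SLC2A1 and SLC2A3, against 2.86%. Neither share was tested. No knockout peak of the 9 genes lay within 500 bases of a start. Several blocks made up 9 of the 14 SiHa peaks, against 25.2% of the SiHa list, and none of the 3 knockout peaks, against 31.3% of the knockout list.

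**Figure D3:**
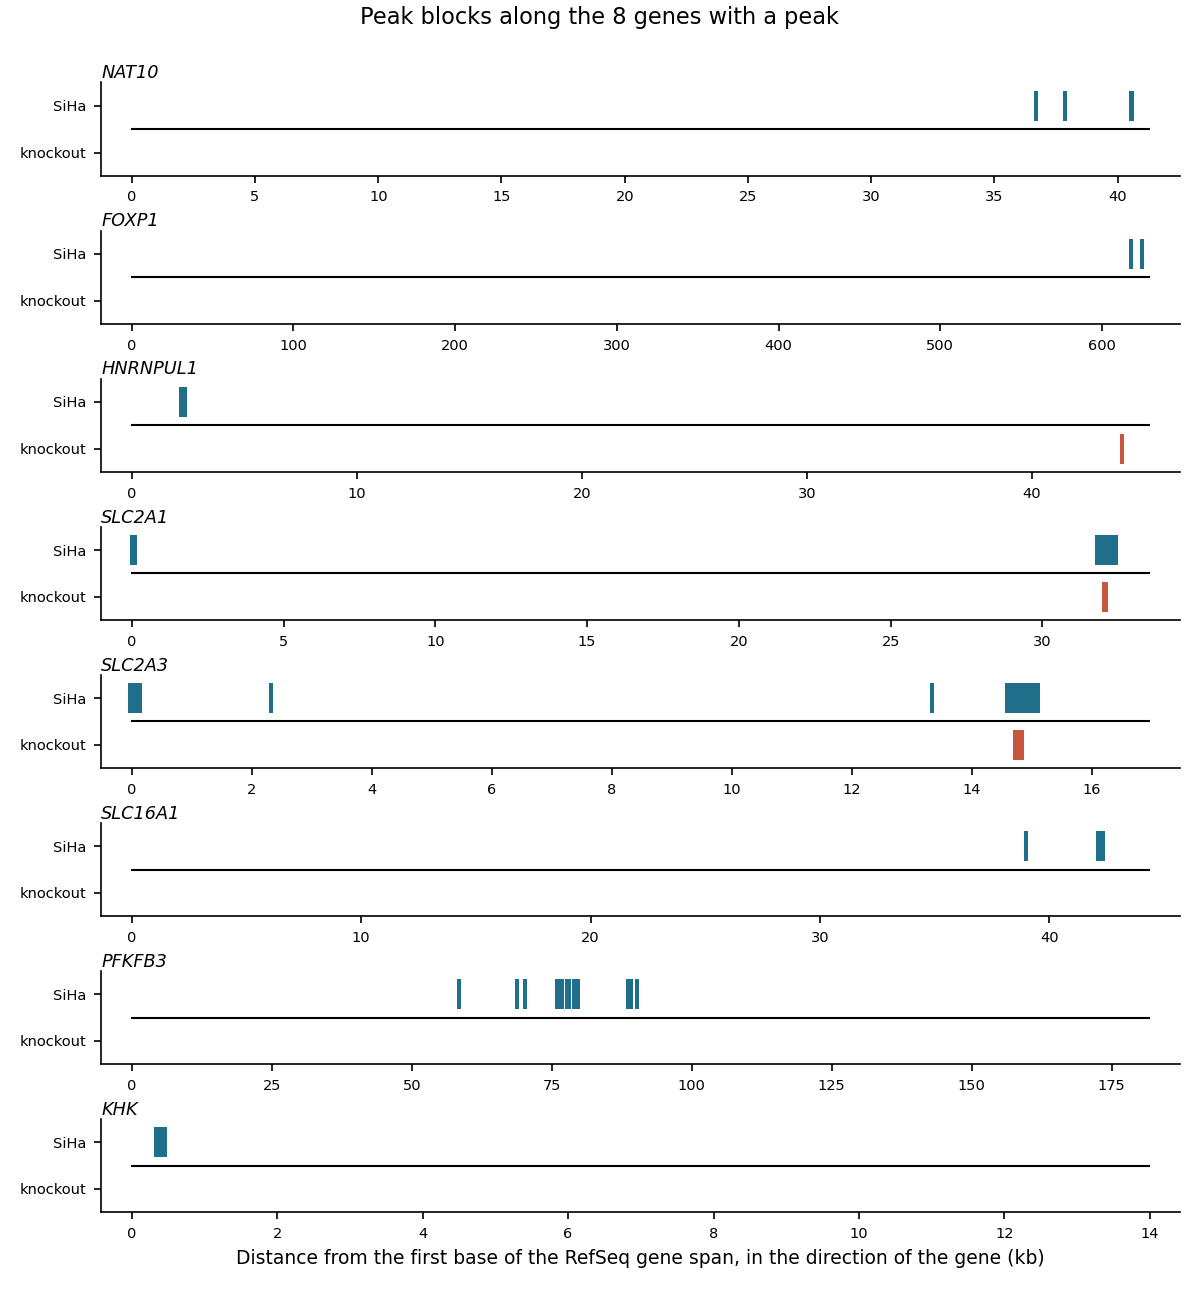
Peak blocks of the SiHa list (above the line) and the knockout list (below it) along the RefSeq span of each gene, as kb from its first base in the direction of the gene, with blocks under 0.4% of the span drawn at that width. NAT10, FOXP1 and SLC16A1 have SiHa blocks near the gene end alone, SLC2A1 and SLC2A3 at both ends, and HNRNPUL1 a SiHa peak near the start and a knockout peak near the end.

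The pathways around these genes were read from 12 lists of 160 genes in all. Of these, 60 had a SiHa peak (37.5%), or 52 of 151 (34.4%) without the 9 genes above, against 29% of RefSeq protein-coding genes. Of the 60, 39 had no knockout peak (65%, 51.6 to 76.9%), an interval that includes the 71.9% of all named genes. Leaving out the 9 genes above, 34 of 52 had no knockout peak (65.4%), and the median −log10 p of the strongest SiHa peak was 13.1. A further 14 pathway genes had a knockout peak alone. In all, 35 of the 160 had a knockout peak, 21 of them in both lists. Over all named genes, 1742 of the 3188 with a knockout peak were in both lists, so the count of 14 is not read as a result about these pathways. For 6 of the 160, peaks lay in the gene span but could not be given to 1 gene.

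Among 17 glucose transporters, 5 had a SiHa peak (29.4%), near the 29% of protein-coding genes. Of the 5, 3 also had a knockout peak, and all 3 were overlapped, against 39.7% of named genes in both lists. Beside SLC2A1 and SLC2A3 this was SLC2A11, with 2 SiHa peaks (strongest p of 1.3e-22), 1 of them overlapped, and a knockout fold of 7.18. SLC2A12 (deposited p of 2e-11) and SLC2A6 (deposited p of 2.7e-05) had a SiHa peak alone. Of 15 genes linked to the traffic of GLUT4 vesicles, 7 had a SiHa peak (46.7%, against 29%). Of the 7, 5 had no knockout peak (71.4%), near the 71.9% of all named genes. TBC1D4, a Rab GTPase-activating protein that holds GLUT4 inside the cell, had a SiHa peak alone with a p listed at 0. RAB10, a Rab that moves these vesicles, had 2 peaks in each list, the strongest with a SiHa p of 6.3e-35 and a knockout fold of 66.7. Of its SiHa peaks, 1 was overlapped, and which of them is not given here.

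Of 11 lactate and pyruvate carriers and their partners, 4 had a SiHa peak (36.4%, against 29% of protein-coding genes) and none a knockout peak. Beside SLC16A1 these were SLC16A7, the carrier MCT2 (deposited p of 1.3e-17), and the MCT chaperones BSG (deposited p of 1.5e-10) and EMB (deposited p of 0.027). In the background 71.9% had none, and with 4 genes the interval runs from 39.8 to 100%.

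Of 24 glycolytic enzymes, 5 had a SiHa peak (20.8%, against 29% of protein-coding genes), 3 of them alone (60%, against 71.9% of all named genes). A knockout peak was found in 6 of the 24, against 14.8% of protein-coding genes, and in 4 it stood alone. HKDC1, a hexokinase-like enzyme, had 3 SiHa peaks (strongest with a deposited p of 1e-157), and PFKP, the platelet phosphofructokinase, had 4 (strongest with a deposited p of 5e-40). PFKL, the liver phosphofructokinase, was found in the knockout list alone, at a fold of 156. The 2 phosphofructokinase genes with a peak thus stood in different lists. Of 19 regulators of glycolysis, 10 had a SiHa peak (52.6%, against 29%), 7 of them alone (70%, against 71.9% of all named genes). HIF1A, the oxygen-regulated transcription factor, had 3 SiHa peaks (strongest with a deposited p of 3.2e-57) and was missing from the knockout list. EGLN1, the prolyl hydroxylase that marks HIF1A for breakdown, had 2 SiHa peaks (strongest with a deposited p of 1e-240) and 1 knockout peak (fold 3.85). One of its SiHa peaks was overlapped, and which of them is not given here.

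In fructose and sorbitol metabolism, 3 of 10 genes had a SiHa peak (30%), near the 29% of protein-coding genes. KHK and the phosphomannomutase PMM2 had SiHa peaks alone, and the glycerate kinase GLYCTK had peaks in both lists. In the pentose phosphate pathway, 3 of 11 had a SiHa peak (27.3%). TALDO1 and H6PD had overlapped peaks and TKT and RPE a knockout peak alone, that of RPE with a false discovery rate of 0.466. In glycogen metabolism and gluconeogenesis, 5 of 18 had a SiHa peak (27.8%), 4 of them alone (80%, against 71.9% of all named genes). The brain glycogen phosphorylase PYGB had 6 SiHa peaks and 1 knockout peak. In the hexosamine pathway, which makes the sugar donor for O-GlcNAc, 2 of 7 had a SiHa peak and 3 of 7 a knockout peak. Over all protein-coding genes these shares were 29 and 14.8%. PGM3 (fold 23.1) and GFPT1 (fold 15.4), enzymes of the pathway, had knockout peaks alone. Their pairs of p and fold recurred, in 122 knockout peaks for PGM3 and 178 for GFPT1. The GFPT1 peak had a false discovery rate of 0.155, above 0.05. OGA, which removes O-GlcNAc, had 3 SiHa peaks alone (strongest p listed at 0), and OGT, which adds it, had peaks in both lists (deposited SiHa p of 2.5e-80, knockout fold 5.13).

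**Figure D4:**
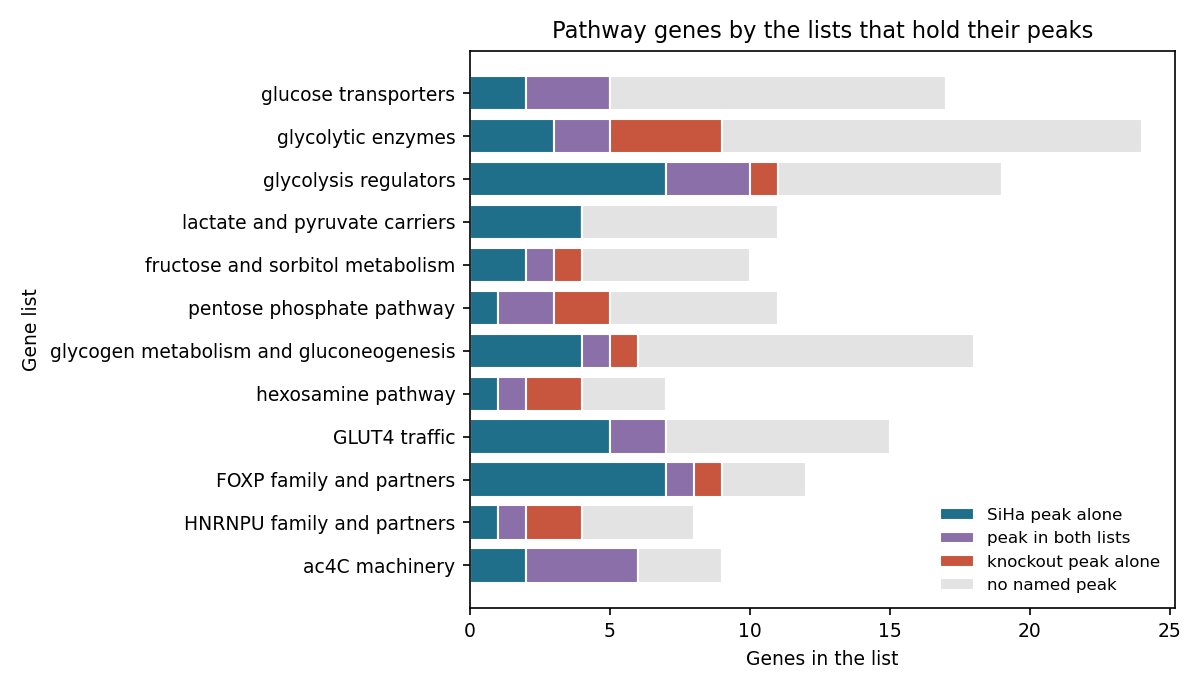
Number of genes of each pathway list, on the horizontal axis, with a SiHa peak alone, a peak in both lists, a knockout peak alone or no named peak. Lactate and pyruvate carriers have 4 genes with a SiHa peak alone and none with a knockout peak, while the ac4C machinery has 4 of 6 in both lists.

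FOXP1 relatives and partners had SiHa peaks in 8 of 12 genes (66.7%, against 29% of protein-coding genes). Of the 8, 7 had SiHa peaks alone (87.5%, 47.3 to 99.7%), an interval that includes the 71.9% of all named genes. A knockout peak was found in 2 of the 12, against 14.8% of protein-coding genes, and in 1 it stood alone. FOXP4, another forkhead factor of the same family, had 5 SiHa peaks (strongest with a deposited p of 2.5e-16). CTBP1 (deposited p of 4e-21) and GATAD2B (deposited p of 4e-12), proteins of corepressor complexes, had SiHa peaks alone. In the HNRNPU family and its partners, HNRNPU had 3 SiHa peaks alone (strongest with a deposited p of 1.3e-25), while HNRNPUL2 (fold 69.2) and the mRNA export receptor NXF1 (fold 123) had a knockout peak alone. The 3 paralogs HNRNPU, HNRNPUL1 and HNRNPUL2 were therefore SiHa alone, both lists and knockout alone. This split rests in part on the HNRNPUL1 knockout peak, whose false discovery rate was 0.0631. The HNRNPUL2 peak had a false discovery rate of 3.16e-15, but its pair of p and fold recurred, in 12 knockout peaks. Around NAT10, 6 of 9 genes of the ac4C machinery and its nucleolar setting had a SiHa peak (66.7%, against 29%). Of these, NOP56, NOP58, SNU13 and UTP3 also had a knockout peak. The share without one was 33.3% (4.33 to 77.7%), an interval that includes the 71.9% of all named genes. None of those 4 was overlapped, and over all named genes in both lists 39.7% had an overlapped SiHa peak. NAT10 and the ribosomal RNA methyltransferase FTSJ3 (deposited p of 3.2e-32) had a SiHa peak alone.

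RefSeq promoter windows of 300 bases, 250 before to 50 after a start, were at hand for NAT10, FOXP1, HNRNPUL1, SLC2A1 and PFKFB3, 13 windows in all. The forkhead core GTAAACA, searched on either strand, was found in 1 of them, a FOXP1 window at chr3:71245028-71245327, and in 3.42% of all windows. Promoters of SLC2A4, KHK, SLC2A3 and SLC16A1 were not analysed here.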

How the data were processed

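The 9 genes and the gene lists were chosen with earlier results of these data known. Per the submitters' processing notes, FastQC 0.11.7 and GRCh38 (hg38) were used. Which aligner and peak caller were used, and how replicates were combined, is not given in the sources used here. Both deposited peak lists give a p-value per peak in a column headed score. Per the file headers, the knockout list adds log10 values of p and of the false discovery rate. Its last column, per the file headers, is a fold enrichment (a ratio), relative to what is not said. All are the authors' values, used only within a list. Peaks off the assembled chromosomes (3 SiHa, 2 knockout) and 1 repeated SiHa line were dropped.

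An Ensembl identifier took the symbol of the RefSeq gene whose span held at least 90% of its peak bases on a compatible strand, strand being known from RefSeq promoter windows. Where several spans did, the only protein-coding one was taken. A symbol that several identifiers could claim went to none of them. Of 9046 identifiers, 7651 (84.6%) were named. Overlap meant at least 1 shared base of blocks on the same strand. Genes most like a member had the same numbers of peaks and the smallest distance in log10 bases and log10 strength. Up to 6 genes per list, by strength, could be named. No test was run. Scripts were tested on simulated data (Python 3.11.15, pandas 2.3.3, SciPy 1.17.1).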

Additional observations from a re-analysis of the deposited data

How the results depend on the processing

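No paired analysis was possible because each population has 1 list and no value per replicate, so leaving out a replicate could not be run either. Of the 9 genes, 3 had a knockout peak. This became 1 with −log10 p above 8 in both lists and 0 without knockout peaks whose p and fold are shared by 10 or more peaks, a setting that removes all 3 peaks by construction. Under this setting 8 genes in place of 5 had SiHa peaks alone. The 2 overlapped SiHa peaks became 1 with −log10 p above 8, 0 without the recurring pairs and 0 with reciprocal overlap of 50%. Each knockout peak covered less than 50% of its wide SiHa peak. When the SiHa list was cut to its strongest peaks, as many as in the knockout list, pathway genes with a SiHa peak fell from 60 to 35, and those without a knockout peak from 39 to 21. The median share of SiHa peaks weaker than the strongest peak of each of the 8 genes, 87.8%, became 88.8% by covered bases and 82% ranked among genes. Taking peaks by RefSeq span, with or without strand, left the 9 genes' counts as they were.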
